A study of Mus musculus with 37 samples.

Results

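The comparison described here set 10 temporal lobe arrays from mice lacking Wfs1 (KO) against 9 from wild-type mice (WT), all of strain 129SV, and took in 19 of the 37 arrays of the study. Members were chosen by title alone, with no measured value involved, and every non-control probe set was tested. The strain is written 129SV in the sample labels and 129S6 in the series design, and is called 129SV here. Genotypes are given as WFS1 KO and WT. Lobes were dissected, frozen in liquid nitrogen and extracted with Trizol, and biotin-labelled cRNA was hybridised to Affymetrix mouse arrays. The sources used here do not give how the gene was disrupted, nor the sex, age, litter and hybridization day of the mice. Whether every array stands for a separate mouse is not stated in the labels. The p-values therefore describe the spread between these samples, some of which may be technical.

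Wfs1 encodes wolframin, a glycoprotein that spans the membrane of the endoplasmic reticulum (ER), where secreted and membrane proteins fold and calcium is stored. Mutations in the human gene cause Wolfram syndrome, with diabetes, optic atrophy and psychiatric and neurological signs. In rodent forebrain the gene is strongly expressed in neurons of the amygdala, the hippocampal CA1 field and the ventral striatum. Loss of wolframin has been tied to the unfolded protein response, the programme by which cells with misfolded ER proteins induce chaperones and slow translation, and to calcium handling and hormone secretion. The comparison asks which transcripts of the temporal lobe differ when the gene is lost on the 129SV background.

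The genotype labels were checked on Wfs1 itself. Signals are log2 values throughout, and a difference is the KO mean minus the WT mean on that scale. In WT the Wfs1 signal was 9.33 ± 0.12 (SD, n = 9), with a lowest value of 9.11, a median of 9.36 and a highest of 9.52. In KO it was 3.11 ± 0.28 (SD, n = 10), with a lowest value of 2.64, a median of 3.19 and a highest of 3.59. The groups did not overlap, and all 10 KO arrays lay below the lowest WT array by more than the whole range of either group. Wfs1 fell by 6.22 (SE 0.10, limma adjusted p = 1.31e-22), with a 95% confidence interval of -6.42 to -6.03. Signals under 3.60, the level that 40% of the probe set means do not reach, are called dim here. Every KO value of Wfs1 lay under it, so the difference is a fall in signal, and how much transcript remained cannot be read from it. A single probe set, 1448411_at, represents the gene, and the sources used here do not place it relative to the disrupted part. RefSeq places Wfs1 on chromosome 5 at 36966104 to 36988982 (GRCm38.p6).

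Markers of brain regions were counted against the dim limit. Above it lay 17 of 17 measured cortical layer markers and 15 of 19 hippocampus markers. So did 12 of 13 amygdala, 20 of 20 striatum and 14 of 16 thalamus and hypothalamus markers. Over all genes 12966 of 18193 lay above it. Most genes of any kind pass this limit, so the counts cannot tell temporal lobe from other brain tissue. Array medians ran from 4.30 to 4.36. Sex is not given, but Eif2s3y, a gene of the Y chromosome, had signals of 6.27 to 7.04 over the 19 arrays. Xist, which female cells express, ran from 3.98 to 4.91. The 3' minus 5' signal of the actin control, which grows as RNA breaks down, was 2.76 on WT array 73 and reached at most 1.77 on the other 18. Array 73 had 984 probe sets lying 1 log2 unit or more from the mean of the rest of its group and KO array 59 had 384, against 15 to 158 elsewhere. WT array 72 carried a Ttr signal of 12.75, and KO array 56 carried the highest Prl and Gh signals. Titles number the arrays, and each group was split by them into lower numbers (5 KO and 5 WT arrays) and higher numbers (5 KO and 4 WT arrays). Between lower and higher numbers, with genotype in the model, 2513 probe sets (5.58%) passed an adjusted p of 0.05. The sources used here do not say what the numbers stand for.

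**Figure D1:**
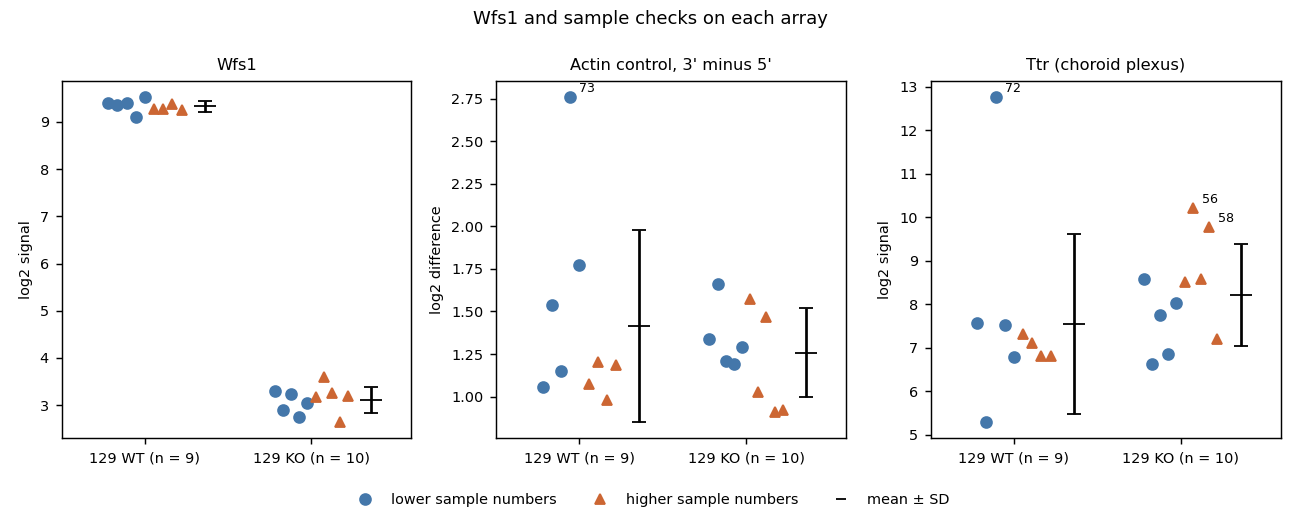
Wfs1 log2 signal, the log2 difference between 3' and 5' actin control probe sets, and Ttr log2 signal on each of 9 WT and 10 KO arrays of strain 129SV; circles are lower and triangles higher sample numbers, and black marks give the mean and SD. Wfs1 separates the groups with no overlap (9.11 to 9.52 against 2.64 to 3.59), while WT array 73 stands apart in the actin measure (2.76) and WT array 72 in Ttr (12.75).

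Among the 45037 probe sets tested, Wfs1 was the one that passed. It was 0.00222% of the probe sets, and in limma's test no probe set was called higher. At an unadjusted p under 0.05 there were 1092 probe sets (2.42%), 387 higher and 705 lower in KO. That is fewer than an even spread of p-values would place there, and in bins of 0.05 the lowest held 1092 and the highest 2570. The next smallest p after Wfs1 was 0.000197, for a probe set of Prrx1, a homeobox transcription factor, with an adjusted p of 0.9997. All other adjusted p-values were at least as large. Of 45037 probe sets, 2 (0.00444%) had groups that did not overlap. They were Wfs1 and 1 of 3 probe sets of Cybb, the catalytic subunit of the phagocyte NADPH oxidase, whose signal was dim in both groups (WT 1.91 to 2.14, KO 2.15 to 2.43). Cybb was named after its values were seen.

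Precision was high for most genes. The 95% interval of the difference lay wholly within 0.5 of 0 for 97.8% of probe sets and within 1 for 99.9%. Above the dim limit, 96.6% of 27270 probe sets had intervals within 0.5, and the median interval reached 0.17 to either side of the difference. A difference of 0.5 or more in size was found for 8 probe sets and one of 1 or more for Wfs1 alone. The largest after Wfs1 was that of Ttr, the choroid plexus carrier of thyroid hormone, at 0.67 (interval -0.70 to 2.03, unadjusted p = 0.324). Ttr signals spread from 5.28 to 12.75 in WT and from 6.63 to 10.21 in KO, so this gene was measured with far less precision than most. Without WT array 72, the highest, the difference was 1.32.

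**Figure D2:**
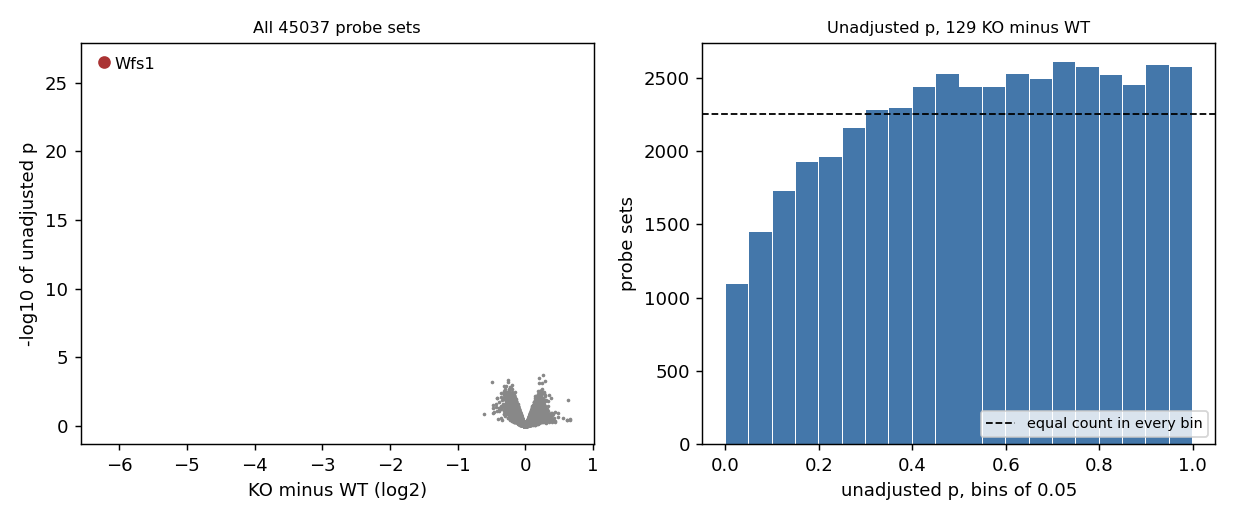
Left, difference between KO and WT in 129SV (log2) against -log10 of the unadjusted limma p for all 45037 probe sets; right, number of probe sets per bin of unadjusted p, with a dashed line at the count an even spread would give. Wfs1 lies alone at -6.22, all others lie within 0.67 of 0, and the lowest bin holds 1092 probe sets.

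The probe sets next in size are described as genes that did not pass. They had an unadjusted p under 0.01 and a mean at or above the dim limit in at least 1 group. There were 74 such probe sets, Wfs1 included, 19 higher and 55 lower. The 10 highest genes had differences from 0.23 to 0.39, and 9 of their 10 WT means lay between 3.40 and 3.92, close to the dim limit. They were Ankrd6 (0.39), which acts in Wnt signalling, Slc2a12 (0.36), a glucose transporter, Snap29 (0.29), a SNARE protein of membrane fusion, Ndc1 (0.29), a nucleoporin, and Tcf3 (0.29), a helix-loop-helix transcription factor. The others were Gusb (0.28), a lysosomal glucuronidase, Smad3 (0.28), a mediator of TGF-beta signals, Pstpip1 (0.26), Grifin (0.25) and Dgkq (0.23), a diacylglycerol kinase. These are values of 1 probe set each, and the 7 genes with further probe sets disagreed between them. Brighter probe sets differed by 0.09 and 0.04 for Ankrd6, by -0.02 for Slc2a12, by 0.04 and 0.07 for Snap29 and by -0.01 for Ndc1. They differed by 0.06 for Tcf3 and by 0.02 and 0.19 for Smad3, and the other, weaker probe set of Gusb differed by -0.05. Pstpip1, Grifin and Dgkq had no second probe set. The WT means of Slc2a12, Snap29, Smad3, Pstpip1 and Grifin were dim, so these genes reached the limit through KO alone. For Tcf3, Gusb and Grifin all 10 KO arrays lay above the WT median, yet every one of the 10 genes had overlapping groups. Gusb, which is brighter, had a lowest, median and highest signal of 4.14, 4.44 and 4.60 in WT and of 4.48, 4.62 and 5.19 in KO.

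The 10 lowest ranged from -0.49 to -0.27. Arpc2, a subunit of the actin-nucleating Arp2/3 complex, differed by -0.49 (interval -0.74 to -0.23) on a weak probe set, with 8 of 10 KO arrays under the lowest WT array. Its bright probe set, at 10.84 in both groups, differed by 0.00, so the probe sets of this gene disagree. Pkdcc, a secreted kinase, differed by -0.41, and its brighter probe set by 0.02. Cab39l differed by -0.30 on a weak probe set and by 0.03, 0.12 and 0.04 on the others. Frmd4b differed by -0.31 on its brightest probe set and by -0.07, 0.16, -0.08 and 0.02 on the others. With probe sets averaged per gene, the differences were -0.05 for Frmd4b, -0.03 for Cab39l and 0.13 for Tcf3. Slc35d3, a membrane protein of striatal neurons, had 1 probe set and differed by -0.28 (interval -0.48 to -0.08), with signals of 5.07 to 5.85 in WT and 5.05 to 5.47 in KO. The remainder were Leng1 (-0.31), Ier5 (-0.29), Spx (-0.29), Zfp51 (-0.27) and Ap1s3 (-0.27). The KO means of Cab39l, Spx and Zfp51 were dim, so these genes reached the limit through WT alone. The groups of all 10 overlapped. Of the 73 probe sets that did not pass, 39 (53.4%) had the same sign in the C57 arrays of the study.

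Genes were then read by function, each by its brightest probe set, over 28 lists with 469 distinct measured genes other than Wfs1. No list member passed. At an unadjusted p under 0.05 there were 18 members (3.84%), 6 higher and 12 lower, beside 0.797% higher and 1.3% lower over all 18193 genes. For 450 of the 469 (95.9%) the interval lay within 0.5 of 0. The median difference over all genes was 0.00, with 8693 higher and 9500 lower.

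**Figure D3:**
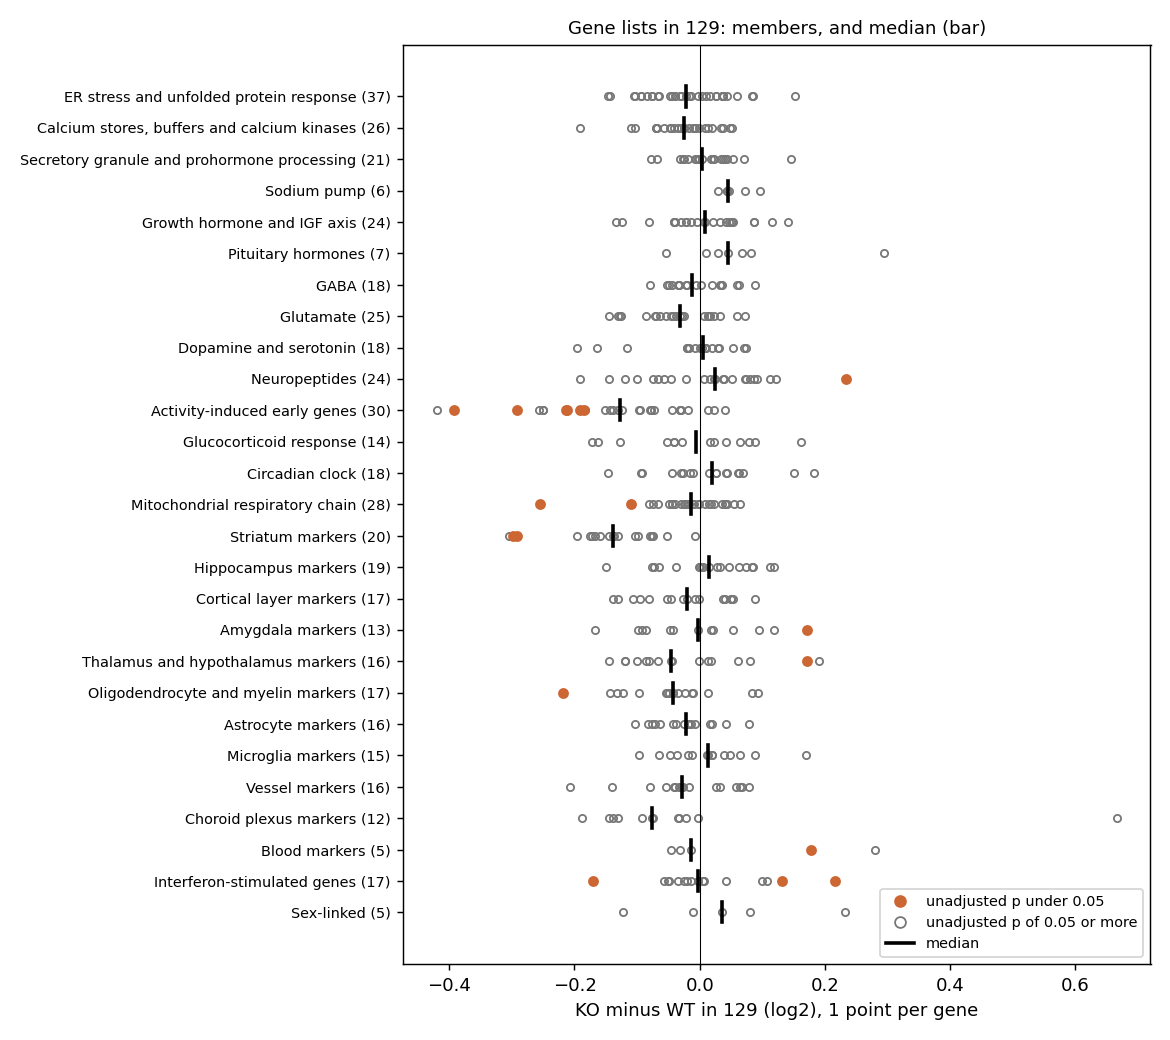
Difference between KO and WT in 129SV (log2) for each member of 27 gene lists, 1 point per gene with the number measured in brackets; filled points have an unadjusted p under 0.05 and bars are medians. No member passed the adjusted test, the early gene and striatum lists lie mostly left of 0 (medians -0.13 and -0.14), and the ER stress list is centred close to 0 (-0.02).

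None of the 37 measured genes of ER stress and the unfolded protein response had an unadjusted p under 0.05, and 15 were higher and 22 lower in KO. Their median was -0.02, with differences from -0.15 (Dnajc3) to 0.15 (Chac1). Every interval lay within 0.5 of 0, and the bound farthest from 0 was 0.34. Signals of Hspa5, the ER chaperone BiP and a usual readout of this response, had a lowest, median and highest value of 10.03, 10.26 and 10.73 in WT. In KO they were 9.85, 10.28 and 10.54. The groups overlapped almost entirely, and the difference was -0.08 (SE 0.10, interval -0.29 to 0.14). Ddit3, the transcription factor CHOP that promotes death under lasting ER stress, ran from 6.83 to 7.05 in WT and from 6.69 to 7.28 in KO, a difference of -0.03 (interval -0.17 to 0.11). Xbp1, whose message is spliced by the ER sensor Ire1, differed by -0.06 (interval -0.26 to 0.13) in total signal, and the deposited values do not separate its spliced form. Atf4, which drives the amino acid response, differed by 0.04 (interval -0.14 to 0.21).

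The members nearest to a call were lower in KO. Edem1, which directs misfolded glycoproteins to disposal, lay between 6.46 and 6.73 in WT and between 6.34 and 6.58 in KO. All 10 KO arrays were below the WT median, and the difference was -0.09 (interval -0.20 to 0.01, unadjusted p = 0.079). Dnajc3, a co-chaperone of BiP, differed by -0.15 (unadjusted p = 0.084), and Hyou1, an ER chaperone of the Hsp70 family, by -0.10 (unadjusted p = 0.084). Cisd2, the gene of the second form of Wolfram syndrome, had signals of 5.84 to 6.34 in WT and 5.39 to 6.14 in KO and differed by -0.03 (interval -0.21 to 0.15).

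Promoter sequences of the ER chaperones are shown because many carry the ER stress response element through which Atf6 and NF-Y induce them. The element was searched as CCAAT followed by 9 bases of any kind and CCACG, on both strands, in windows from 250 bases before to 50 bases after each RefSeq gene start (GRCm38.p6). It was found in 9 of the 33 list genes with a window (27.3%) and in 37 of 27025 genes overall (0.137%). The 250 bases before the start follow for Hspa5 (chr2:34771840-34772089, plus strand), Hsp90b1 (chr10:86705445-86705694, minus strand), the ER Hsp90, and Dnajc3 (chr14:118937682-118937931, plus strand), 5′ to 3′ with the element in capitals. Hsp90b1 has 1 match on each strand.
Hspa5: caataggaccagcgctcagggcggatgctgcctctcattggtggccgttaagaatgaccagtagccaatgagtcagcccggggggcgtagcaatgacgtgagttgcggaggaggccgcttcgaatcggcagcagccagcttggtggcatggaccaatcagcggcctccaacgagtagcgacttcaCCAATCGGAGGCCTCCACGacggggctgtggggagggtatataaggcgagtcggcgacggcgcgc
Hsp90b1: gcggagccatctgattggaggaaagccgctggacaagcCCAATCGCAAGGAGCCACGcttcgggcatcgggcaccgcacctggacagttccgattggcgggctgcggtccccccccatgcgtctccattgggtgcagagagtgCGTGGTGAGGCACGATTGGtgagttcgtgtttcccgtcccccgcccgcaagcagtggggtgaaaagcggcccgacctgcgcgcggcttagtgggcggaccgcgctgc
Dnajc3: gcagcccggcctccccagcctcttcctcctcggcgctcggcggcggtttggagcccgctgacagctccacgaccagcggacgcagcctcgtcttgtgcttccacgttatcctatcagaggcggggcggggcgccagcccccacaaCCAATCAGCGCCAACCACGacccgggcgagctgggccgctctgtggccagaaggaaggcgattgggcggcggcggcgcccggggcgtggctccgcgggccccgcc
The 9 genes with the element (Hspa5, Hsp90b1, Dnajc3, Syvn1, Derl3, Pdia6, Calr, Canx and Creld2) had a median difference of -0.08, from -0.15 to 0.02. The 24 without it had a median of -0.01. Neither set held a member with an unadjusted p under 0.05. Hsp90b1 had signals of 9.37 to 9.77 in WT and 9.20 to 9.61 in KO, and differed by -0.08 (interval -0.22 to 0.05). A match of letters describes these windows and shows no binding.

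Among genes of calcium stores, buffers and kinases no member passed, with 0 of 26 members at an unadjusted p under 0.05 and a median of -0.03. Atp2a2, the SERCA pump that fills the ER with calcium, differed by -0.03 (interval -0.16 to 0.11), and Ryr2, a calcium release channel, by -0.01. S100b, a calcium-binding protein of astrocytes, was the member with the smallest unadjusted p (0.081) and differed by -0.10. Among 21 genes of secretory granules and prohormone processing none had an unadjusted p under 0.05 either. Their median was 0.00, and Scg3, a granin of dense-core vesicles, had the smallest p with a difference of 0.07 (interval -0.04 to 0.18).

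Wolframin binds the beta 1 subunit of the sodium pump, which keeps the sodium and potassium gradients of neurons. Atp1b1, the gene of that subunit, had signals of 11.89 to 12.27 in WT and 12.04 to 12.36 in KO, a difference of 0.03 (interval -0.09 to 0.15). Without WT array 73 that difference was 0.00. The differences of all 6 measured pump genes were positive, from 0.03 to 0.10 with a median of 0.05, and none had an unadjusted p under 0.05. Fxyd1, a regulator of the pump, was the farthest at 0.10 (interval -0.05 to 0.24).

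Of the growth hormone and IGF axis, 24 genes were measured, and 0 had an unadjusted p under 0.05. Igf1 differed by -0.04 (interval -0.23 to 0.15) and its receptor Igf1r by -0.08 (interval -0.21 to 0.05). Insr, the insulin receptor, came closest at -0.12 (unadjusted p = 0.095). The 4 probe sets of Gh, growth hormone, differed by 0.08, 0.39, 0.42 and 0.63, and the brightest, 1460310_a_at, had an interval of -0.28 to 0.44. Whether dim signals stand above background was not tested, and the other 3 probe sets were dim in both group means. Of these, 1437522_x_at (0.63) had an interval of 0.14 to 1.12 (limma unadjusted p = 0.013, adjusted p = 0.9997). On it 7 of 10 KO arrays lay above every WT array. In C57 the 4 probe sets differed by 0.00, 0.09, 0.08 and 0.28. KO array 56 was the highest array on each of the 4 probe sets, at 5.42 on the brightest, where the other KO arrays reached at most 4.27. Without that array the differences were -0.07, 0.15, 0.16 and 0.39. Prl, prolactin, was dim on all arrays (2.40 to 3.28) and differed by 0.07, and Pomc, the precursor of ACTH, differed by 0.29 (interval -0.04 to 0.63) with 6.90 as its highest KO signal against 5.36 in WT. Trpm8, a cold-sensing channel, was dim as well and differed by -0.04 (interval -0.17 to 0.08).

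Transmitter systems gave no call. For GABA 0 of 18 genes had an unadjusted p under 0.05. Gad1, which makes GABA, differed by -0.03 (interval -0.14 to 0.07), and Gabra2, the alpha 2 subunit of the GABA-A receptor, by -0.08 (interval -0.26 to 0.10). Gabra2 lies on the chromosome of Wfs1. For glutamate 0 of 25 and for dopamine and serotonin 0 of 18 members had an unadjusted p under 0.05, with medians of -0.03 and 0.01. Htr4, a serotonin receptor, had the smallest p of the latter (0.064) and differed by -0.16. Of 24 neuropeptide genes 1 had an unadjusted p under 0.05. Crhbp, which binds corticotropin-releasing hormone, had signals of 5.71 to 6.11 in WT and 5.76 to 6.78 in KO and differed by 0.23 (interval 0.03 to 0.44), with 5 of 10 KO arrays above every WT array. Crh itself differed by -0.19 (interval -0.39 to 0.01).

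Activity-induced early genes, which neurons switch on within minutes of firing, were the list with the most members at an unadjusted p under 0.05. These were 6 of 30, all lower in KO, and none passed the adjusted test. In all, 27 members were lower and 3 higher, and the median was -0.13. Over all 18193 genes 236 (1.3%) were lower at that unadjusted p, and 9500 were lower and 8693 higher whatever their p. Fos, the transcription factor most used as a mark of activity, had a lowest, median and highest signal of 6.17, 6.98 and 7.97 in WT and of 5.94, 6.68 and 7.58 in KO. Its difference was -0.42 (SE 0.23, interval -0.89 to 0.05, unadjusted p = 0.078), within the spread of either group. Npas4, a transcription factor induced by calcium influx, ran from 3.90 to 5.36 in WT and from 3.72 to 5.09 in KO. Its difference was -0.39 (interval -0.78 to -0.01), and 9 of 10 KO arrays lay below the WT median.

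Dusp1, a phosphatase that ends MAP kinase signals, had signals of 7.13, 7.25 and 7.49 (lowest, median and highest) in WT and of 6.81, 7.05 and 7.41 in KO. It differed by -0.21 (SE 0.08, interval -0.38 to -0.04, unadjusted p = 0.016), and 5 of 10 KO arrays lay below every WT array. Ier5, an early response regulator, differed by -0.18 on its brightest probe set, where 6 of 10 KO arrays lay below every WT array, and by -0.29 and -0.01 on the others. Ccn1, a matricellular protein, differed by -0.19 at a dim signal. Egr3, a zinc finger transcription factor, differed by -0.21 and Ptgs2, the inducible cyclooxygenase, by -0.29. Egr1 (-0.18, interval -0.42 to 0.05) and Arc (-0.25, interval -0.56 to 0.05), a synaptic protein, had unadjusted p-values of 0.12 and 0.10. Homer1 differed by -0.03 on its brightest probe set and by -0.48 (interval -0.97 to 0.01) on another, 1436387_at. Its other probe sets differed by -0.05, 0.15, 0.17 and, at a dim signal, -0.14, so the probe sets of this gene disagree in sign.

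Values are also given within the sample numbers. The mean deviation of the 30 early genes from their own means lay between -0.19 and 0.30 in WT and between -0.24 and 0.09 in KO. Among the lower numbers 22 of 30 members were lower in KO with a median of -0.07, and the groups overlapped (WT -0.19 to 0.09, KO -0.24 to 0.04). Among the higher numbers 28 of 30 were lower with a median of -0.20, and the groups did not overlap (WT 0.19 to 0.30, KO -0.04 to 0.09). These are 5 KO and 4 WT arrays. How often other genes or lists separate in so few arrays was not counted, so the separation of the scores is a description only. The WT scores of lower and higher numbers did not overlap either. Fos differed by -0.20 in the lower and by -0.76 in the higher numbers, and Egr1 by 0.05 and -0.48. Npas4 differed by -0.07 and -0.81, and Dusp1 by -0.21 and -0.23. Whether the effect differs between lower and higher numbers was not tested. With the 4 arrays that stood apart (56, 59, 72 and 73) left out, 24 of 30 members were lower and the median was -0.14.

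The promoter of Dusp1 is shown because it holds the full cAMP response element, the site through which CREB turns on early genes. The element TGACGTCA, the same on both strands, was found in 2 of the 24 early genes with a window (8.33%), Dusp1 and Btg2, and in 2.03% of all genes. The 250 bases before the start of Dusp1 (chr17:26508473-26508722, minus strand, RefSeq GRCm38.p6) follow, 5′ to 3′ with the element in capitals.
Dusp1: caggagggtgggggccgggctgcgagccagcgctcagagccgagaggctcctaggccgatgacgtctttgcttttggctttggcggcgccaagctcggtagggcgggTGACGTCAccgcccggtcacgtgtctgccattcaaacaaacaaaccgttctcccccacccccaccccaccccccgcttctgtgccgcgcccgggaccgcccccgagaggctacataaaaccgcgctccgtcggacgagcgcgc
Btg2, an antiproliferative early gene and the other holder of the element, differed by 0.02 (interval -0.41 to 0.46).

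Striatum markers are given beside the early genes. All 20 measured striatum markers were lower in KO, with a median of -0.14, and 2 had an unadjusted p under 0.05. Over all 18193 genes 9500 were lower, 236 (1.3%) of them at that p. Pde10a, the phosphodiesterase of striatal projection neurons, had a lowest, median and highest signal of 8.85, 9.25 and 9.76 in WT and of 8.61, 9.02 and 9.67 in KO, and differed by -0.29 (interval -0.57 to -0.01). Its other 4 probe sets differed by -0.03, -0.09, -0.24 and -0.01, so they disagree in size. Gpr6, a receptor of the indirect pathway, differed by -0.30 (interval -0.59 to 0.00), with 4 of 10 KO arrays below every WT array. Drd2, the dopamine receptor of that pathway, differed by -0.20 and Ppp1r1b, the signal integrator DARPP-32, by -0.14, while Drd1 differed by -0.01 (interval -0.27 to 0.26). The list score lay between -0.22 and 0.26 in WT and between -0.42 and 0.25 in KO, so the groups overlapped. The median was -0.04 in the lower numbers (15 of 20 lower) and -0.25 in the higher numbers (20 of 20 lower). In these bulk samples fewer cells of a type, a smaller share of a region and less RNA per cell cannot be told apart. The part of the amount of striatum in the early gene differences was not tested.

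**Figure D4:**
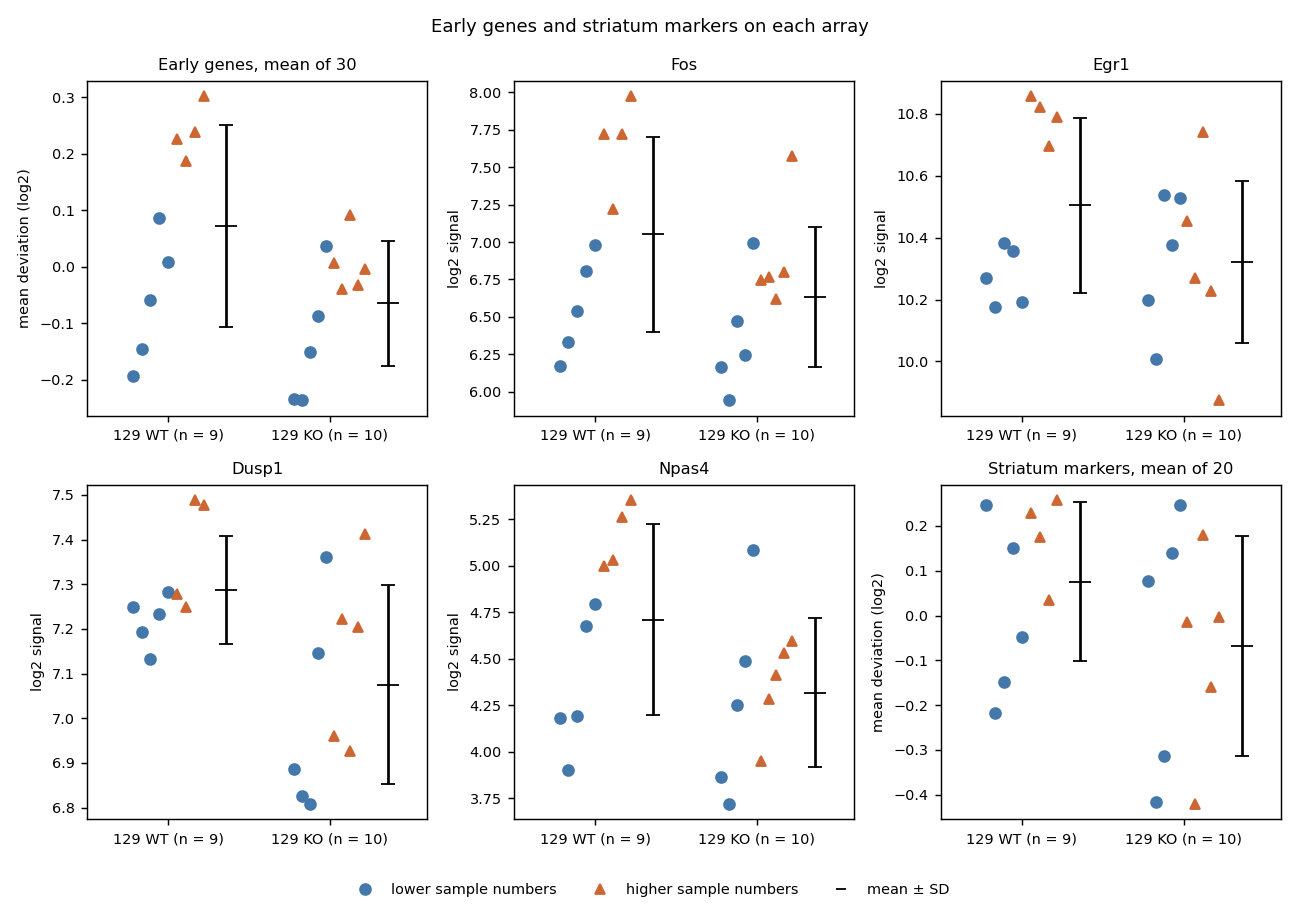
Mean deviation of 30 early genes and of 20 striatum markers (log2), and log2 signals of Fos, Egr1, Dusp1 and Npas4, on each array; circles are lower and triangles higher sample numbers, set in number order within a group, and black marks are the mean and SD. Early gene scores of the higher numbers, 5 KO and 4 WT arrays, separate (WT 0.19 to 0.30, KO -0.04 to 0.09). How often other lists separate in so few arrays was not counted. WT scores of lower and higher numbers separate too. Early gene scores of the lower numbers overlap, and striatum scores overlap over most of their range.

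Markers of other regions had medians closer to 0. Hippocampus markers had a median of 0.01 (13 of 19 higher), cortical layer markers of -0.02 and amygdala markers of 0.00, where Prkcd, a kinase of the central amygdala, differed by 0.17 (unadjusted p = 0.040). Of thalamus and hypothalamus markers, which also hold Prkcd, 1 of 16 had an unadjusted p under 0.05, with a median of -0.05 (-0.02 without WT array 73). Of the glial lists, 14 of 17 oligodendrocyte and myelin markers were lower with a median of -0.04, and leaving out WT array 72, WT array 73 or KO array 56 made it -0.08, -0.02 or -0.03. Cldn11, a tight junction protein of myelin, ran from 7.14 to 7.73 in WT and from 6.79 to 7.57 in KO and differed by -0.22 (interval -0.42 to -0.02). Astrocyte (median -0.02), microglia (0.01) and vessel (-0.03, and between -0.05 and 0.00 with 1 of those arrays left out) markers had no member at an unadjusted p under 0.05, and P2ry12, a microglial purine receptor, was the farthest microglial gene at 0.17 (interval -0.21 to 0.55).

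Choroid plexus markers had a median of -0.08, and the sign of that median followed 1 array. WT array 72 had a choroid plexus score of 1.22 where the other WT arrays reached at most -0.03, and the median without it was 0.03. Of 5 measured blood markers, 2 above the dim limit, 2 were higher and 3 lower, with a median of -0.01. Among them Hba-a2, an alpha globin that shares sequence with its twin Hba-a1, differed by 0.18. Interferon-stimulated genes (17 measured, 8 higher and 9 lower) had a median of -0.003. At an unadjusted p under 0.05 they had 2 higher and 1 lower, among them Lgals3bp at 0.22 and Oas1a at -0.17. Over all genes 0.797% were higher and 1.3% lower at that p. In the mitochondrial respiratory chain 2 of 28 members were lower at that p, Cox7c at -0.26 and Cox5a at -0.11, both subunits of cytochrome oxidase. Whatever their p, 10 were higher and 18 lower, with a median of -0.01. The list score ran from -0.03 to 0.04 in WT and from -0.25 (array 57) to 0.29 (array 59) in KO. Glucocorticoid response (14 measured, median -0.01) and circadian clock genes (18 measured, median 0.02) had none.

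Chromosomal position was examined because genes near a targeted locus are inherited with it. Of 1121 measured genes other than Wfs1 on chromosome 5, none passed in 129SV, and 1.87% had an unadjusted p under 0.05 against 2.09% on other chromosomes. Of the 25 protein-coding genes on each side of Wfs1, 45 were measured. Their differences ran from -0.20 (Evc, a ciliary protein) to 0.13 (Hs3st1, a heparan sulfate enzyme), and all 45 intervals lay within 0.5 of 0.

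The effect of the genotype was set against that in strain C57 (9 KO and 9 WT arrays) by testing the difference of the differences over all 37 arrays. It passed for 11 probe sets (0.0244%), 6 of them naming 5 genes, all on chromosome 5, and 5 without a gene symbol. Wfs1 was not among them, and its falls differed by 0.06 (SE 0.14, adjusted p = 0.9999). Abhd1, an alpha/beta hydrolase fold protein, had 129SV signals of 5.95 ± 0.11 in WT (SD, n = 9) and 5.96 ± 0.22 in KO (SD, n = 10). It differed by 0.01 in 129SV (interval -0.15 to 0.18) and by 1.38 in C57, an effect lower in 129SV by 1.37 (SE 0.15, limma adjusted p = 1.12e-06). Drc1, of the ciliary dynein regulatory complex, differed by 0.05 (interval -0.06 to 0.16) in 129SV and by 0.64 in C57 (adjusted p of the difference 0.0028). Ppp1cb, a catalytic subunit of protein phosphatase 1, differed by -0.07 and 0.74 on 1 of its 4 probe sets. Supt7l, of the SAGA complex, differed by -0.28 and 0.60 on 1 of 3. Jakmip1, a microtubule-binding protein of neurons, has 4 probe sets. The 2 that passed differed by 0.09 and 0.04 in 129SV and by -0.71 and -1.85 in C57. The other probe sets of Ppp1cb, Supt7l and Jakmip1 did not pass. For 10 of the 11 probe sets the 129SV difference was under 0.1 in size. Of these, 1430597_at of Jakmip1 and 1440807_at, 1442241_at, 1447094_at and 1455650_at, which have no symbol, were dim in both 129SV group means. A difference near 0 at such signals cannot be read as the absence of an effect. Of the 10 genes listed for their C57 difference, Ccr6, a chemokine receptor, had 129SV signals of 5.12 to 5.49 in WT and 5.25 to 6.03 in KO. It differed by 0.21 (interval 0.06 to 0.37), opposite in sign to its -0.74 in C57, and the difference of 0.96 had an adjusted p of 0.10. For the striatum genes Pde10a, Drd2 and Ppp1r1b, which differed by -0.60, -0.59 and -0.37 in C57, the difference between strains did not pass (adjusted p = 0.9999 for each).

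**Figure D5:**
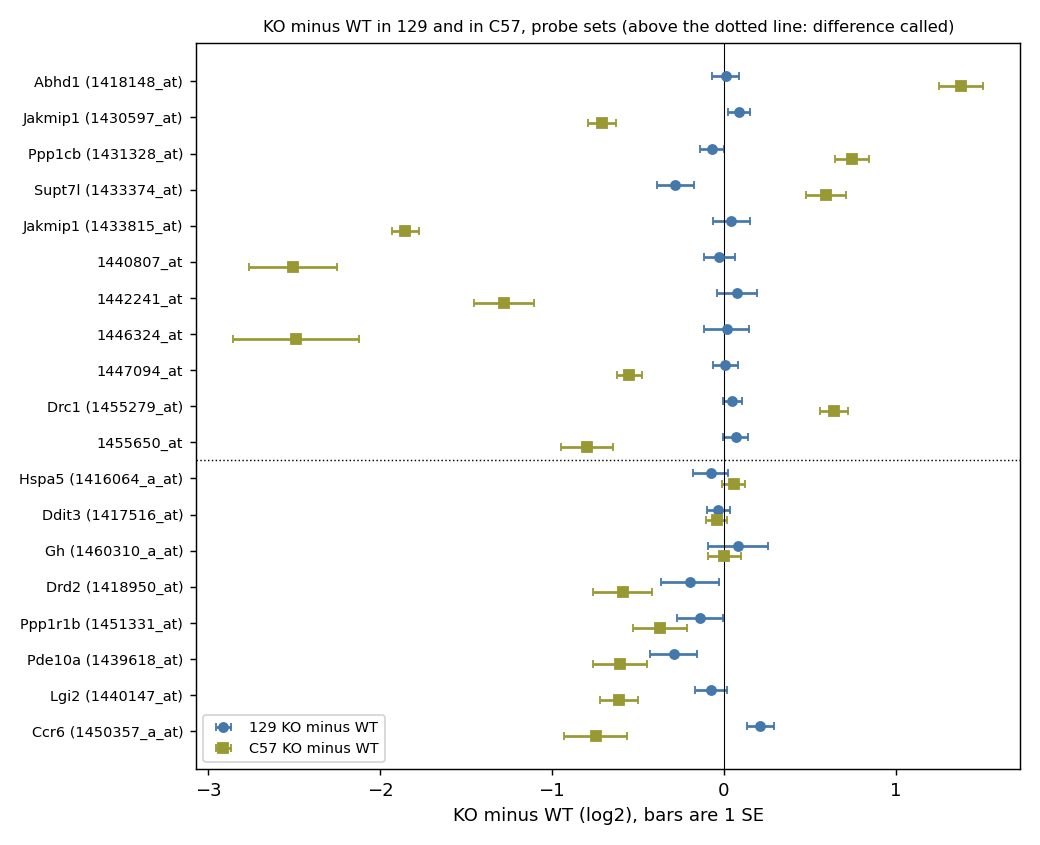
Difference between KO and WT (log2) with its SE in 129SV and in C57 for the 11 probe sets whose effect differed between the strains (above the dotted line) and for 8 other named genes below it. The 129SV points of 10 of the 11 lie within 0.1 of 0, several of them dim in both 129SV group means, and Supt7l lies at -0.28.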

How the data were processed

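The study measured 37 temporal lobe samples on Affymetrix arrays, and 19 of strain 129SV enter the comparison. The deposited values are log2 probe set signals, with array medians between 4.30 and 4.36 before any step taken here. The submitters' processing notes name MAS5 and GCRMA, and which of these made the values, and in what version, is not stated there. The values have the form that GCRMA writes (1.34 to 13.32) and were used as deposited, with neither scaling nor pseudocount. Of 45101 probe sets, 64 controls were left out. Gene symbols came from the platform annotation, 34945 probe sets having 1 symbol, 932 several and 9160 none. Each of 18193 genes was read by its brightest probe set.

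limma 3.58.1 (lmFit and eBayes, R 4.3.3) was fitted to the 19 arrays, with 2-sided tests and Benjamini-Hochberg adjustment over 45037 probe sets and a call at an adjusted p under 0.05. The difference between strains used 1 mean per group over all 37 arrays. Gene lists received no test, and no member was dropped by a filter. A list score averages, on each array, how far its members lay from their 19-array means. The number of arrays limits the precision. Fits were also tested on simulated arrays with independent noise for each probe set. That simulation held no shift between sample numbers and no array with broken-down RNA, so it does not cover such effects in these arrays.

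Genes were named by a rule. It took every called gene, the 10 highest and 10 lowest at an unadjusted p under 0.01 above the dim limit, up to 3 members per list by smallest p, and 24 genes whatever their result. Further list members were named after their values were seen. The members and lists were chosen with earlier results of these data known. Alternatives covered filters, probe set choice, normalization, variance model, array weights, all 37 arrays, lower or higher sample numbers as a block or alone, actin as a covariate and each array left out. Leaving out arrays 56, 59, 72 and 73 was chosen after seeing the data. Promoters came from RefSeq (GRCm38.p6). Python 3.11.15, NumPy 2.4.6, pandas 2.3.3 and matplotlib 3.10.9 were also used.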

Additional observations from a re-analysis of the deposited data

Results flagged for a closer look

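Of 150 sets of values (each named gene, list score and array measure in each group), 18 had an end value set apart from the rest, with a gap to the nearest array that exceeded Dixon's 95% critical value as a share of the range. Chance gives about 1 in 20. WT array 73 was the highest for Frmd4b (0.564), Cisd2 (0.516), the blood marker score (0.528), the actin (0.556) and Gapdh (0.656) 3' minus 5' differences, and the lowest for the GABA score (0.654). KO array 59 was the highest for Abhd1 (0.539), Ccr6 (0.531) and the dopamine and serotonin (0.508), microglia (0.642) and interferon (0.533) scores, and the lowest for Cisd2 (0.564). WT array 72 was the highest for Ttr (0.695) and the choroid plexus score (0.844). Single arrays stood apart for Gh in KO (0.581, array 56), Gad1 in KO (0.562, array 50), Ndc1 in WT (0.494, array 74) and Trpm8 in WT (0.542, array 76). The largest share among these, 0.844, belonged to the choroid plexus score.

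For 11 probe sets the KO effect differed between strains at an adjusted p under 0.05, as 129SV difference minus C57 difference. The values were -1.37 for Abhd1, 0.80 and 1.90 for Jakmip1, -0.81 for Ppp1cb, -0.88 for Supt7l and -0.59 for Drc1. Probe sets without a symbol gave 2.48 (1440807_at), 1.36 (1442241_at), 2.50 (1446324_at), 0.56 (1447094_at) and 0.86 (1455650_at).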

How the results depend on the processing

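Wfs1 was the single call in all 33 settings tried, with differences from -6.32 to -6.13, and -6.28 to -6.17 with each array left out in turn. No list member was called in any of them. The count of genotype effects that differed between strains was 11, and became 6 with the filter at the 40th percentile, 3 at the 60th, 2 with the brightest probe set per gene and 3 with probe sets averaged per gene. The filters remove dim probe sets and the settings per gene remove those with no symbol. With sample numbers (lower or higher) as a block it was 12. The share at an unadjusted p under 0.05 ran from 1.34% to 3.64%. The early gene median ran from -0.20 to -0.07 and the striatum median from -0.25 to -0.04, and the higher and lower sample numbers alone gave the ends of both. With each array left out in turn they ran from -0.16 to -0.09 and from -0.17 to -0.10. The 20 largest differences that did not pass kept their sign in every setting that held them but not their size. They were picked by size and p from these same arrays, so a kept sign was likely beforehand and lends them no weight. With probe sets averaged per gene Frmd4b went from -0.31 to -0.05, Cab39l from -0.30 to -0.03 and Tcf3 from 0.29 to 0.13, and the others with several probe sets lay between 0.07 and 0.17 (higher) or -0.24 and -0.16 (lower). Of the genes named in any case, 13 of 23 changed sign in some setting, all uncalled. Among list medians, leaving out WT array 73 turned the sign for cortical layer (0.00), amygdala (0.03), microglia (-0.01), blood (0.05) and dopamine and serotonin (-0.03). Leaving out WT array 72 turned it for choroid plexus (0.03), secretory granule (0.00), growth hormone and IGF (-0.01), amygdala (0.01), blood (0.01) and interferon (0.01). No paired analysis was possible because the KO and WT arrays share no replicate numbers. The limit of 3.60 is a percentile, and no background level was estimated. Whether signals under it stand above background was not tested, which limits the choroid plexus, pituitary and blood lists most. With the filters or per gene, 244 to 520 probe sets or genes had an unadjusted p under 0.05, and with the higher sample numbers alone 1640 did.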
